A study of Homo sapiens with 12 samples.

Results

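VPS72, also called YL1, is a subunit of the SRCAP and TIP60 complexes and binds the histone variant H2A.Z, which SRCAP exchanges into nucleosomes in place of H2A. H2A.Z sits around active promoters and enhancers, and its acetylated form (H2A.Zac) and H3K27ac mark those that are active, while H3K4me1 is best known from enhancers and the flanks of promoters. The regions described here are those where a FLAG-tagged VPS72 peak and an H2A.Z peak coincide in control cells.

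The data were ChIP-seq peak lists from Huh7, a human hepatocellular carcinoma line, with the endogenous VPS72 gene tagged by FLAG at its 3′ end. Control cells carried that knock-in and had been infected for 24 h with a lentivirus without VPS72, called lenti-HA in the titles and empty vector in the design. Overexpression cells carried the same knock-in and had been infected for 24 h with a lentivirus encoding VPS72-FLAG. Each condition had 1 input library and 1 ChIP library per antibody, the antibodies being against FLAG, H3K4me1, H3K27ac, H2A.Z and H2A.Zac. The tag was therefore on the endogenous protein in the control, and also on the lentiviral one with overexpression. The knock-in cells came from colonies that survived blasticidin selection, and FLAG ChIP of untagged cells was not analysed here, so a FLAG peak need not be a VPS72 site. Coordinates are hg19, 1-based, with cytogenetic bands. No gene annotation or genome of that build was used here, so no gene is assigned to a region and no sequence is shown.

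A region entered the set if it was a control FLAG peak at least 500 bp wide, on chromosomes 1 to 22 or X, that overlapped by at least 1 bp a control H2A.Z peak at least 500 bp wide. This gave 5894 regions, 10.4% of the 56422 wide control FLAG peaks and 3.2% of all 184114 control FLAG peaks. They lay on 5930 of the 31392 wide control H2A.Z peaks (18.9%). The choice rested on control FLAG and control H2A.Z, so values of those 2 lists are given as description. The other 8 ChIP lists played no part in it. With 1 library per group nothing was tested between conditions, and the intervals in parentheses are 95% intervals (Wilson for percentages, exact order-statistic for medians) that cover counting error only.

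The regions were narrow, few of them exceeding 2 kb. Their median width was 843 bp (830 to 856), 2011 were under 700 bp and 486 were at least 2000 bp, and the widest measured 19882 bp. On the H2A.Z side, 5632 regions lay on a single wide H2A.Z peak, 256 on 2 and 6 on 3 or more. The overlap was partial for many of them, since 1443 regions lay wholly inside H2A.Z and 1884 had less than 50% of their length on it. A q of 0.05 or less was reached by the FLAG peak at 4895 regions (83.1%) and by an H2A.Z peak at 4280 (72.6%). Of all wide FLAG peaks, 23.1% overlapped a deposited H2A.Z peak of any width and 9.13% one with a q of 0.05 or less, and nothing is read from these since they took part in the choice. Only 4 regions overlapped a deposited input peak. At the width limit, the 3 regions just inside were 500 bp wide, with authors' FLAG folds of 3.15 (chr7:4943160-4943659), 2.74 (chr9:139378800-139379299) and 5.49 (chr10:21462093-21462592). The 3 FLAG peaks on wide H2A.Z just outside were 499 bp wide, with folds of 3.33 (chr6:54711213-54711711), 3.16 (chr7:20837922-20838420) and 3.2014 (chr7:150710266-150710764). The values on either side of the limit overlapped, and a further 4329 FLAG peaks under 500 bp lay on wide H2A.Z.

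Acetylated H2A.Z was the mark most often present. In the control, 4786 regions (81.2%, 80.2 to 82.2%) overlapped a deposited H2A.Zac peak, where 16.4% of all wide FLAG peaks did. H3K27ac was found at 2629 regions (44.6%, 43.3 to 45.9%), against 9.39% of all wide FLAG peaks, and H3K4me1 at 2088 (35.4%, 34.2 to 36.7%), against 13.2%. The wide FLAG peaks that missed wide H2A.Z had far smaller shares, at 8.84% for H2A.Zac, 5.28% for H3K27ac and 10.6% for H3K4me1. At a q of 0.05 or less the regions kept 74.8% for H2A.Zac (11.3% of all wide FLAG peaks), 37.6% for H3K27ac (5.85%) and 10.9% for H3K4me1 (2.79%). Most H3K4me1 peaks at these regions thus had a q above 0.05, and the share for this mark rests on the limit applied.

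With overexpression, 4892 regions (83.0%, 82.0 to 83.9%) overlapped a FLAG peak, where 72.1% of all wide FLAG peaks did. H2A.Z was found at 4371 regions (74.2%, 73.0 to 75.3%), against 12.5% of all wide FLAG peaks. The shares were 72.8% (71.6 to 73.9%) for H2A.Zac against 14.1%, 42.3% (41.0 to 43.6%) for H3K27ac against 10.7%, and 46.4% (45.1 to 47.7%) for H3K4me1 against 15.6%. At a q of 0.05 or less the regions kept 58.2% for overexpression FLAG (44.3% of all wide FLAG peaks), 49.8% for H2A.Z (5.98%), 63.5% for H2A.Zac (8.75%), 33.8% for H3K27ac (5.37%) and 34.8% for H3K4me1 (9.41%). The lists themselves differed in length, and the part of this in the shares was not tested: on chromosomes 1 to 22 and X the H2A.Z list went from 182213 to 57951 peaks, the FLAG list from 184114 to 551907 and the H3K4me1 list from 124449 to 155160. Few of the overexpression FLAG peaks at these regions were of the faintest kind, since the highest summit held 1 read at 6 of 4892 regions (0.123%) and at 442 of 35769 wide FLAG peaks off H2A.Z (1.24%).

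**Figure D1:**
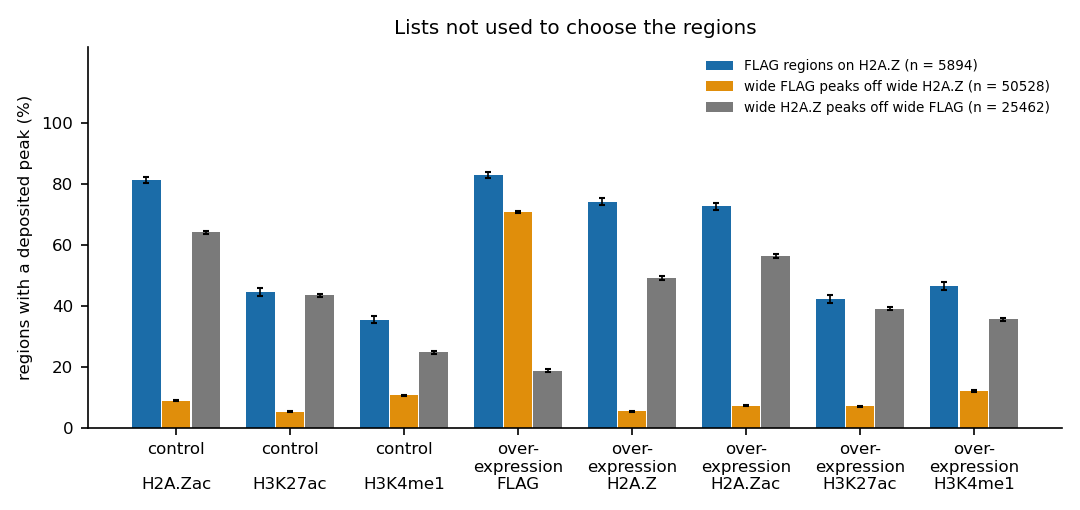
Percentage of regions (vertical axis) that overlapped a deposited peak in each of the 8 lists not used to choose them, for the 5894 FLAG regions on H2A.Z, the 50528 wide control FLAG peaks off wide H2A.Z and the 25462 wide control H2A.Z peaks off wide FLAG; bars are shares and whiskers Wilson 95% intervals. The FLAG regions on H2A.Z stand at 81.2% for control H2A.Zac, against 8.84% for FLAG off H2A.Z and 64.1% for H2A.Z off FLAG, while for overexpression FLAG the 3 sets stand at 83.0, 70.8 and 18.7%.

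Counted from the H2A.Z side, the peaks that carried a wide FLAG peak resembled the others in H3K27ac and differed in H3K4me1. H3K27ac lay at 45.8% of wide H2A.Z peaks on FLAG and 43.4% off it (43.9% of all wide H2A.Z peaks), and H3K4me1 at 38.1 and 24.7% (27.2% of all). H2A.Zac lay at 81.3 and 64.1% (67.3% of all), and an overexpression H2A.Z peak at 75.8 and 49.1% (54.2% of all). In the other overexpression lists the shares on and off FLAG were 80.2 and 18.7% for FLAG (30.3% of all), 73.4 and 56.4% for H2A.Zac (59.6%), 43.0 and 39.1% for H3K27ac (39.8%) and 52.1 and 35.5% for H3K4me1 (38.6%). A control FLAG peak of any width, the quantity behind the choice, lay at 30.8% of all wide H2A.Z peaks. H2A.Z height, however, went along with FLAG. Height here means reads piled at the summit, recovered from the deposited fold and p, divided by the mean coverage that library had over the genome. In the lowest of 5 classes of H2A.Z height 7.23% of wide H2A.Z peaks carried wide FLAG, and in the highest class 32.6% did, so the comparison was repeated within classes of H2A.Z height and width.

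Among H2A.Z peaks of like height and width, those with FLAG had H3K27ac less often and H3K4me1 more often. Of 15 classes (5 of height by 3 of width), 14 held at least 20 peaks of each kind. H3K27ac was less frequent with FLAG in 12 of the 14, with intervals apart in 7, and more frequent in 2, with intervals apart in 0. H3K4me1 was more frequent with FLAG in 14 of 14, with intervals apart in 7. In the highest H2A.Z class over all widths, H3K27ac lay at 59.7% (57.8 to 61.6%) of peaks with FLAG and 73.1% (71.8 to 74.3%) without, and H3K4me1 at 45.9% (43.9 to 47.8%) and 31.1% (29.9 to 32.4%). The order for H2A.Zac was mixed, being higher with FLAG in 8 of 14 classes and lower in 6. An overexpression H2A.Z peak was more frequent with FLAG in 14 of 14 classes, with intervals apart in 13. Overexpression H2A.Zac was less frequent with FLAG in 10 of 14, with intervals apart in 3. It was more frequent in 4, with intervals apart in 0. Overexpression H3K27ac was less frequent in 11, with intervals apart in 5, and more frequent in 3, with intervals apart in 1. Overexpression H3K4me1 was more frequent in 14 of 14, with intervals apart in 6.

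The same trade between H3K27ac and H3K4me1 ran through the set itself as FLAG grew taller. Regions were split into 5 classes of control FLAG height, with limits at 13.15, 17.5, 21.9 and 30.7 times the genome average. From the lowest class (1032 regions) to the highest (1363), control H3K27ac went from 60.5% (57.4 to 63.4%) through 58.1, 49.2 and 38.2% to 22.5% (20.4 to 24.8%). Control H3K4me1 went the other way, from 17.8% (15.6 to 20.3%) through 23.26, 32.1 and 43.0% to 55.6% (53.0 to 58.2%). H2A.Zac was 87.9, 86.8, 84.8 and 81.9% in the first 4 classes and 67.7% in the highest. The overexpression libraries, which had no part in making the classes, showed the same order, with H3K27ac at 57.3% in the lowest and 22.6% in the highest class and H3K4me1 at 28.2 and 62.9%. Overexpression FLAG was found at 60.9% of the lowest class and 98.2% of the highest.

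**Figure D2:**
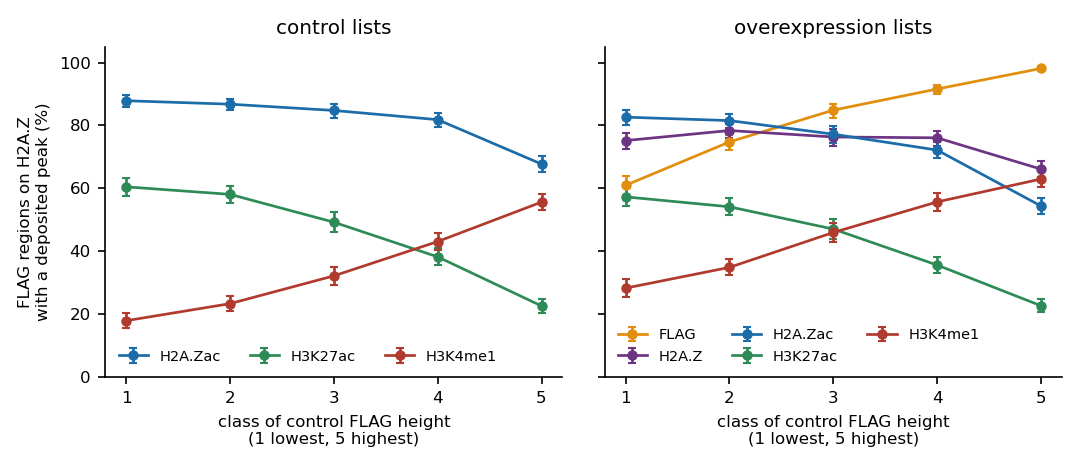
Percentage of the FLAG regions on H2A.Z with a deposited peak (vertical axis) in 5 classes of control FLAG height (horizontal axis), for the control lists on the left and the overexpression lists on the right; points are shares and whiskers Wilson 95% intervals. H3K27ac falls from 60.5 to 22.5% and H3K4me1 climbs from 17.8 to 55.6% in the control. With overexpression H3K27ac falls from 57.3 to 22.6% and H3K4me1 climbs from 28.2 to 62.9%. In the highest class H3K4me1 is below H2A.Zac in the control (67.7%) and above it with overexpression (54.4%).

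Width and local background varied with FLAG height, and the shares were recomputed within classes of width and of H2A.Z height and without regions of high local H2A.Z background. Median width was 638 bp in the lowest class and 1329 bp in the highest, the median local background of the FLAG library 1.90 and 3.38 times its genome average, and the share of regions with a local H2A.Z background of 2 or more 12.2 and 28.4%. At regions under 1000 bp, H3K27ac was 59.8% in the lowest and 23.1% in the highest class, and H3K4me1 16.8 and 40.1%. At regions of 1000 bp or more, H3K27ac was 67.4 and 22.2%, and H3K4me1 28.3 and 63.0%. Leaving out the regions of high local H2A.Z background gave 60.4 and 18.8% for H3K27ac and 17.8 and 55.3% for H3K4me1. Within the highest class of H2A.Z height, the 939 regions in the lower 2 FLAG classes had H3K27ac at 71.0% (68.1 to 73.8%) and H3K4me1 at 22.3% (19.7 to 25.03%), and the 1187 regions in the upper 2 had 43.8% (41.0 to 46.6%) and 54.8% (52.0 to 57.7%). The order of both marks was present in each of these subsets, and the part of the FLAG library's own background was not tested. Across the regions, FLAG and H2A.Z heights had a Spearman rho of 0.049 (5893 regions of 1 library each, given without a test). The local backgrounds of those libraries had a rho of 0.43. Both lists chose the regions, so these values are description and do not show how the heights go together outside the set. H2A.Z and H2A.Zac heights had a rho of 0.55 over 4786 regions.

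Taking the marks in combination, the commonest state in the control was H2A.Zac with H3K27ac and without H3K4me1, the pattern of many active promoters, at 2027 regions (34.4%, 33.2 to 35.6%). H2A.Zac with H3K4me1 followed at 1185 (20.1%), H2A.Zac alone at 1024 (17.4%) and all 3 marks at 550 (9.33%). No mark was called at 726 (12.3%). H3K27ac hardly occurred without H2A.Zac, at 29 regions alone (0.492%) and 23 with H3K4me1 (0.390%). At wide H2A.Z peaks off FLAG these 2 states were also rare, at 1.03 and 0.456%. There H2A.Zac with H3K27ac lay at 30.1%, H2A.Zac with H3K4me1 at 8.44% and H2A.Zac alone at 13.7%. All 3 marks lay at 11.9% of them and no mark at 30.5%. At wide FLAG peaks off H2A.Z no mark was called at 81.0%, and H2A.Zac with H3K27ac lay at 1.75%. Among the FLAG regions on H2A.Z, the states differed in shape. The median width was 720 bp for H2A.Zac with H3K27ac and 1136 bp for H2A.Zac with H3K4me1, with median FLAG heights of 15.3 and 24.1. The unmarked regions had a median H2A.Z height of 5.01, against 8.59 for H2A.Zac with H3K27ac, and overexpression H2A.Z at 18.9% of them, against 88.5%.

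With overexpression the combination was the same at 3595 regions (61.0%). H2A.Zac with H3K27ac stayed so at 1547 of 2027 regions (76.3%), while H2A.Zac alone stayed so at 335 of 1024 (32.7%) and became H2A.Zac with H3K4me1 at 374 (36.5%). H3K4me1 was found at 1013 regions where the control list had none and was missing at 366 where it had one. H2A.Zac ran the other way, with 118 regions found only with overexpression and 615 only in the control, and H3K27ac had 274 and 410. The totals followed: H3K4me1 alone went from 5.60 to 11.1% of regions and H2A.Zac alone from 17.4 to 10.2%. At wide H2A.Z peaks off FLAG, H3K4me1 likewise had 4195 found only with overexpression and 1435 only in the control, so a longer H3K4me1 list was not particular to the FLAG regions. H2A.Zac had 368 and 2335 there, and H3K27ac 806 and 1904, the same directions as at the regions. Control H2A.Zac peaks were found again at 87.15% in the regions and 85.7% off FLAG, and control H3K27ac peaks at 84.4 and 82.8%.

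**Figure D3:**
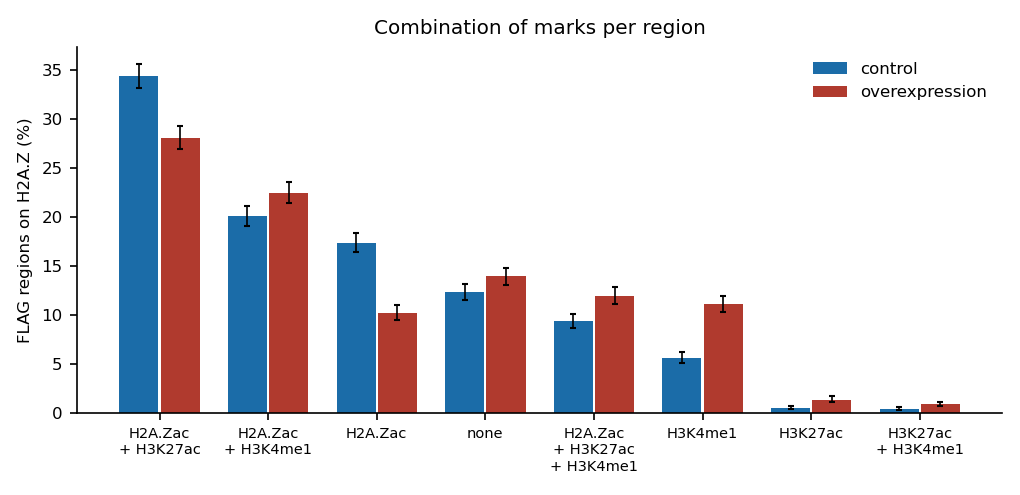
Percentage of the 5894 FLAG regions on H2A.Z (vertical axis) in each combination of H2A.Zac, H3K27ac and H3K4me1 peaks (horizontal axis), in the control and with overexpression; bars are shares and whiskers Wilson 95% intervals. H2A.Zac with H3K27ac is the commonest state in both, at 34.4 and 28.1%, and H3K4me1 alone is at 5.60 and 11.1%.

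The peaks that defined the regions were often, not always, found again with overexpression. Both FLAG and H2A.Z were found at 3676 regions (62.4%, 61.1 to 63.6%), FLAG only at 1216 (20.6%), H2A.Z only at 695 (11.8%) and neither at 307 (5.21%). The regions that kept FLAG only were those of low H2A.Z, with a median height of 5.73 and control H2A.Zac at 46.8%. Those that kept H2A.Z only were low in FLAG, with a median height of 13.15, and had control H2A.Zac at 95.8% and H3K27ac at 66.6%. Within each of 5 classes of control H2A.Z height, H2A.Z was found again more often with an overexpression FLAG peak than without one, by a small margin in the upper classes. From the lowest class up, the shares were 22.8, 33.1, 60.9, 83.4 and 94.0% with an overexpression FLAG peak and 15, 26.8, 59.8, 80.2 and 93.8% without one. The intervals overlapped in all 5 classes, which does not show that the shares were equal. Of the 1523 regions without an overexpression H2A.Z peak, 413 (27.1%) had H2A.Zac peaks in both conditions, so an absent H2A.Z call does not show that H2A.Z was gone.

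Where both conditions had a peak, H2A.Zac was lower with overexpression nearly throughout, and to a like degree off FLAG. The median height ratio, overexpression over control, was 0.640 (0.635 to 0.645) over 4171 regions, with 3.33% of regions higher, against 5.29% of all wide FLAG peaks. H3K27ac had a median ratio of 0.755 (0.748 to 0.764) over 2219 regions and was higher at 11.8%, against 12.9%. H3K4me1 had a median of 1.12 (1.11 to 1.13) over 1722 regions and was higher at 64.8%, against 61.9%. Wide H2A.Z peaks without FLAG had ratios of 0.647, 0.754 and 1.20 for these 3 marks. All wide FLAG peaks include the regions themselves (4171 of 5727 for H2A.Zac), and the wide FLAG peaks off H2A.Z were higher at 10.5% for H2A.Zac (9.11 to 12.2%, median ratio 0.670), 15.2% for H3K27ac (median 0.764) and 59.98% for H3K4me1 (median 1.09). Across the 5 classes of FLAG height the H2A.Zac ratio stayed between 0.627 and 0.646. Heights are scaled to each library's own average, so a library-wide difference in enrichment and a change at these regions cannot be told apart.

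FLAG and H2A.Z, which chose the regions, had median ratios of 0.969 (0.958 to 0.989, 4889 regions) and 0.852 (4371 regions). FLAG was higher at 46.3% of regions, against 43.5% of all wide FLAG peaks, and H2A.Z at 30.6%, against 35.2%. At wide FLAG peaks off wide H2A.Z, H2A.Z was higher at 51.0% (48.3 to 53.8%), with a median ratio of 1.02 (0.993 to 1.06, 1276 peaks). The direction for FLAG changed with how the regions were chosen, turning to 1.04 with the control still choosing when a q of 0.05 or an overlap of 50% was required. Across the classes of control FLAG height it ran from 1.38 in the lowest (higher at 82.8% of regions) to 0.874 in the highest (32.1%), and these classes were made from the same control heights. Regions chosen by the same rule in the overexpression lists numbered 2589 (2.91% of 89051 wide FLAG peaks), of which 1767 (68.3%) overlapped a region of the control set, and there the FLAG ratio was 1.04 (1.04 to 1.06) and the H2A.Z ratio 0.917 (0.905 to 0.929). The ratios of H2A.Zac, H3K27ac and H3K4me1 at those regions were 0.644, 0.761 and 1.12, close to those of the control set. These FLAG ratios rest on a depth of 4.38 M (mega) reads in the control and 3.07 M with overexpression.

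**Figure D4:**
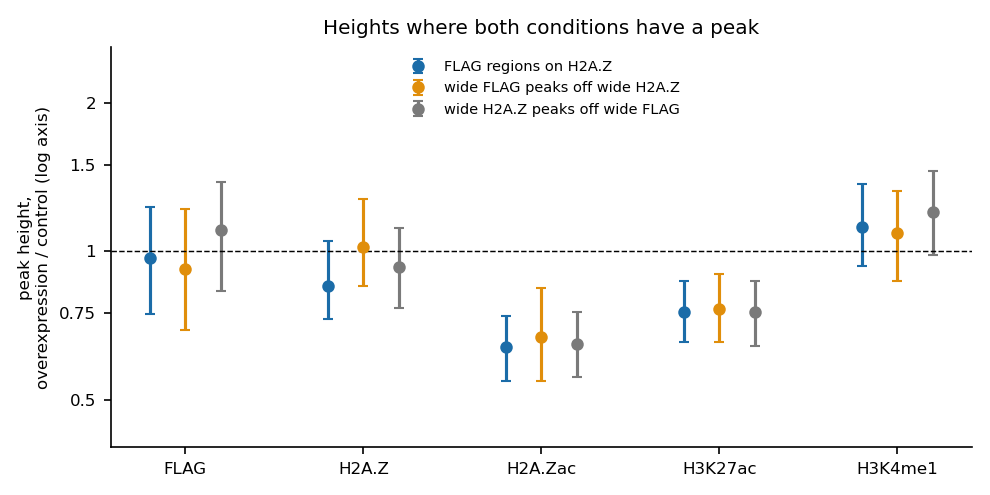
Peak height with overexpression over that in the control (vertical log axis, each height over its library's genome average) for the 5 antibodies, where both conditions had a peak, in the 3 sets of regions; points are medians and whiskers the quartiles over regions. H2A.Zac has medians of 0.640, 0.670 and 0.647 in the 3 sets and H3K4me1 medians of 1.12, 1.09 and 1.20.

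FLAG summits lay farther from H2A.Z summits than the summits of 1 antibody lay from each other in the 2 conditions. The median distance from the control FLAG summit to the H2A.Z summit was 312 bp (301 to 323), and 25.9% were within 150 bp. To the overexpression FLAG summit it was 149 bp (144 to 155), with 50.3% within 150 bp. Distances to H2A.Zac, H3K27ac and H3K4me1 summits were 324, 267 and 329.5 bp. H2A.Z and H2A.Zac summits lay 182 bp apart at the median, and control and overexpression H2A.Z summits 192 bp apart. The FLAG summit lay inside the H2A.Z peak at 68.8% of regions and inside the H3K4me1 peak at 38.8% of those with one, so H3K4me1 was more often beside the summit than over it. FLAG summits rest on a median of 9 reads and H2A.Z summits on 11, which limits the precision of each position.

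**Figure D5:**
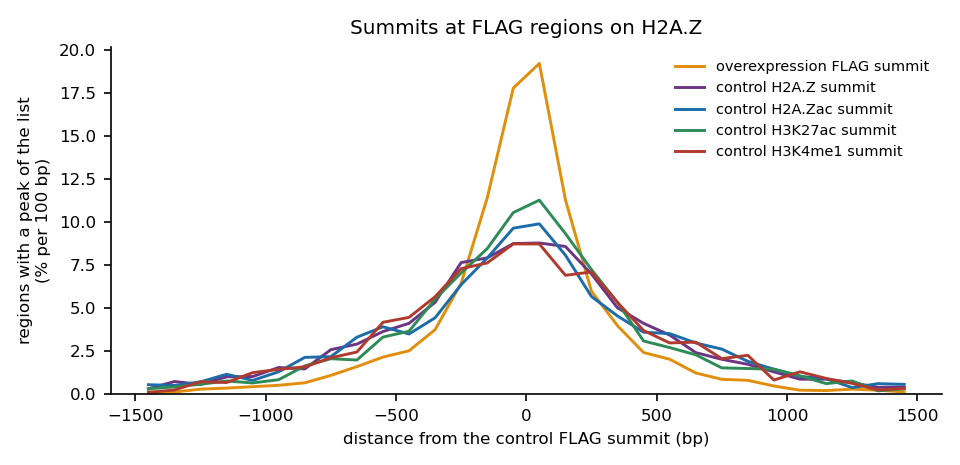
Distance of peak summits of 5 lists from the control FLAG summit (horizontal axis, bp) at the FLAG regions on H2A.Z, as the percentage of regions with a peak of that list per 100 bp (vertical axis). Overexpression FLAG has the sharpest line, with 50.3% within 150 bp, and control H2A.Z has 25.9% within that distance.

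The regions were densest on a few small chromosomes and in pale-staining bands. Chromosome 19 had 436 regions, or 7.37 per Mb, followed by chromosome 20 (4.65 per Mb), 17 (4.11) and 22 (3.74), against 1.94 per Mb over all and 0.367 on X. As a share of wide FLAG peaks, the range was narrower, from 5.07% on X to 13.9% on chromosome 20. Bands that do not stain with Giemsa (gneg) held 64.5% of the regions, 68.8% of wide FLAG peaks off H2A.Z and 52.6% of wide H2A.Z peaks off FLAG. In these bands the regions lay between the other 2 sets. For gpos25 bands their share was 13.23% (12.4 to 14.1%), against 12.2% of FLAG off H2A.Z and 11.1% of H2A.Z off FLAG. For acen (centromere) bands it was 1.31% (1.05 to 1.63%), above FLAG off H2A.Z (0.873%) and close to H2A.Z off FLAG (1.22%, 1.09 to 1.36%). Within 1 Mb of chromosome ends lay 5.48% of the regions, 6.42% of FLAG off H2A.Z and 1.94% of H2A.Z off FLAG. The bands with most regions were 19p13.3 (93), 20q13.33 (77) and 7p22.3 (74). The bands of genes named in the series' title held 12 regions at 1q21.3 (VPS72, 2.55 per Mb), 6 at 1q32.3 (ATF3, 2 per Mb), 21 at 1p36.22 (MTOR, 6 per Mb) and 36 at 17p11.2 (SREBF1, 5.81 per Mb). As a share of wide FLAG peaks in the band, the regions made up 8.05, 16.7, 9.09 and 10% in these 4 bands, against 10.4% over all. A band holds many genes, and no region was tied to the genes named.

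Neighbouring regions lay a median of 139 kb apart, and 1062 (18.0%) had another within 5 kb. The run with most regions had 11, at 12p11.1 (chr12:34487109-34507531), next to the centromere, with control H2A.Zac at 10, H3K4me1 at 11 and H3K27ac at 1. A run of 8 lay at 1q42.13 (chr1:228744006-228782538), the band known for the 5S ribosomal RNA genes, and all 8 had FLAG, H2A.Z, H2A.Zac and H3K27ac in both conditions. A run of 7 lay at 1q23.3 (chr1:161410614-161442042), a band known for clustered transfer RNA genes, with H2A.Zac and H3K4me1 in both conditions at all 7. The sources used here do not give how reads from repeated sequence, which cannot be placed in 1 copy, were mapped.

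The FLAG peaks with the highest q rank sat on high local background and mostly on H2A.Z peaks of low fold, while the highest FLAG fold of the set, 21.4 at 3q25.1, had local backgrounds of 2.63 for FLAG and 1.58 for H2A.Z. The 6 regions with the highest FLAG −log10 q had authors' FLAG folds of 9.28 to 19.7, H2A.Z folds of 1.79 to 4.72 (the median over the set was 4.17), and a local H2A.Z background of 6.03 to 53.7 times the genome average, where the median over the set was 1.29. The first was at 1q42.13 (chr1:228744006-228746968), with control and overexpression folds of 19.7 and 20.2 for FLAG and 2.07 and 2.42 for H2A.Z. The second, at 7p11.2 (chr7:56438036-56440824), had FLAG folds of 9.28 on 420 reads and 8.76 on 287, H2A.Z folds of 1.79 in both, and a peak in all 10 lists. A pair at 19q13.12 (chr19:36789340-36800731 and chr19:36776532-36781435) had FLAG folds of 15.7 and 14.1 with H2A.Z folds of 2.76 and 2.01. Each H2A.Z fold is that of the highest H2A.Z peak at the region, of any width. With overexpression the FLAG folds of the 6 were 8.76 to 20.2. The other 2 of the 6, also at 1q42.13, had the higher H2A.Z folds of 4.72 (chr1:228765107-228777156) and 3.81 (chr1:228747191-228751485), with H2A.Zac folds of 8.10 and 6.55.

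The strongest H2A.Z peaks in the set by q had high H2A.Zac folds, and FLAG folds on both sides of the set median. At the 6 regions with the highest H2A.Z −log10 q, the H2A.Z fold was 6.03 to 11.7. The H2A.Zac fold was 9.29 to 26.3 in the control and 5.23 to 13.9 with overexpression. The FLAG fold was 2.85 to 8.26, where the median over the set was 4.39. Ranking by FLAG or by H2A.Z fixes which of these folds is high, so the 2 groups of 6 are not compared. Their local H2A.Z background was 1.36 to 7.47 times the genome average, also above the median of 1.29. At Xq23 (chrX:115004537-115005406) H2A.Z had folds of 6.82 and 5.95 in the 2 conditions, H2A.Zac 18.6 and 13.9, H3K27ac 17.7 and 11.5, and FLAG 4.51 and 3.14. At 7q11.21 (chr7:65112318-65113403) H2A.Zac had the largest fold of the 6, 26.3 in the control and 11.98 with overexpression, with H3K27ac folds of 3.87 and 3.51. H3K27ac was absent in both conditions at 1 of the 6, at 1q25.3 (chr1:184355418-184356887), which had FLAG folds of 5.30 and 5.48. The H2A.Zac fold was lower with overexpression at all 6. The remaining 3 lay at 11q12.1 (chr11:57334793-57335738), 11q13.2 (chr11:66495005-66496607) and, inside the run at 1q23.3, chr1:161432246-161435660, the last with FLAG folds of 8.26 and 8.42.

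Regions with every list and regions with none marked the ends of the range. All 10 lists were present at 239 regions (4.05%, 3.58 to 4.59%), where 0.48% of all wide FLAG peaks had the 8 lists not used. The best placed by summed rank were at 11q13.2 (chr11:67066655-67071947 and chr11:67270905-67273439) and the 1q42.13 region of 4295 bp. At the first, H2A.Zac had folds of 20.7 and 12.6 and H3K27ac 14.9 and 9.87, while FLAG had 9.49 and 8.28 and H2A.Z 5.55 and 7.31. At the other end, 516 regions (8.75%) had no H2A.Zac, H3K27ac or H3K4me1 peak in either condition, and 119 (2.02%) had none of the 8 lists. Having none was more frequent outside the set. It was seen at 11122 of 50528 wide FLAG peaks off H2A.Z (21.7 to 22.4%). Among wide H2A.Z peaks off FLAG it was seen at 5347 of 25462 (20.5 to 21.5%). Overexpression H2A.Z was found at 13.18% of the 516 and overexpression FLAG at 75.0%, and their median H2A.Z height was 5.01. The strongest FLAG peaks among them were at 3q25.1 (chr3:150537590-150539645), with FLAG folds of 21.4 and 13.8 and H2A.Z folds of 2.19 on 6 reads and 3.74 on 9, at 7q11.22 (chr7:70542695-70543472), with FLAG folds of 14.2 and 8.59, and at 11q12.2 (chr11:59968160-59969369), with 20.2 and 18.3. FLAG was strong and found again at all 3. Control H2A.Z rested on few reads at 3q25.1 (6) and 11q12.2 (8). At 7q11.22 it had a fold of 3.55 on 14 reads, with a q below 0.05. Its height there was 10.02, above the set median of 7.87. Of the 3 widest regions, the 2 at 1p36.32 (chr1:2394932-2414813 and chr1:2382108-2394297) also had H2A.Z on few reads and a q above 0.05. The third, at 1q42.13 (chr1:228765107-228777156), had an H2A.Z fold of 4.72 on 53 reads. At the 2 regions of 1p36.32 the highest H2A.Z peaks had folds of 2.82 and 2.92 on 6 reads each. Both were under 500 bp wide, so they are not the wide H2A.Z peaks that chose the regions. Marks were called at both 1p36.32 regions: the first had a peak in all 10 lists, and the second had H3K4me1 in the control and H3K27ac with overexpression. Of these mark peaks, only overexpression H3K4me1 at the first and control H3K4me1 at the second had a q of 0.05 or less.

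At some regions 1 defining peak was not called with overexpression while other peaks were. FLAG was not called with overexpression at 21p11.2 (chr21:9704175-9704759), where the control fold was 4.84 on 32 reads, while H2A.Z stayed at 8.06 and 7.93 and H2A.Zac went from 18.2 to 7.71. At 13q14.11 (chr13:41239782-41240360) FLAG had a fold of 7.66 on 11 reads in the control, H3K27ac folds of 10.6 and 9.39, and an H2A.Zac fold of 8.78 in the control only. At 19q13.42 (chr19:56096953-56097594) it had 7.85 on 16 reads, and H2A.Z folds of 4.63 and 2.98. H2A.Z was not called with overexpression at 11q13.2 (chr11:67160223-67160780), where the control fold was 6.72 on 36 reads, while H2A.Zac had folds of 10.6 and 8.69 and H3K27ac 14.1 and 8.89. At 19p13.11 (chr19:18942862-18943524) H2A.Z had 6.36 in the control, and H2A.Zac folds of 11.5 and 12.7. At a second 11q13.2 region (chr11:66315206-66315799) H2A.Z had 4.89 on 41 reads and H2A.Zac 14.5 on 183 reads, and neither was called with overexpression, while FLAG had 2.93 and 4.62. A missing call here means that no deposited peak overlapped the region, and signal below the limit of the list was not seen.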

How the data were processed

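Peak lists of 12 libraries were used, grouped by sample title. The genotype labels of the overexpression ChIP libraries run on from VPS73 to VPS77 and were read as VPS72 from the titles. Peak names of the control H3K4me1 list spell H3k3me1, and its title was followed. Per the submitters' processing notes, FastQC, Trimmomatic, BWA and MACS2 were used, and hg19 and hg38 are both named. The contig names in the files are those of hg19. No thresholds or control library of the calling were given in the sources used here.

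In the deposited lists the fold is a ratio of summit pileup to local background, and p and q are deposited as −log10 values, the smallest −log10 p being 1.30 to 1.31. The authors' integer score follows from these, and the deposited summit offset is a position in the peak.

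Reads at each summit were recovered from fold and p (tolerance 0.002, at least 99.98% of peaks per library), and depth from the lowest background at an assumed 2.7 Gb. Depth was 4.38 and 3.07 M (mega) reads for FLAG and 17.9 to 25.02 M for the histone libraries. Recovery was tested on simulated data (11480 peaks, 4 settings, at least 99.866% recovered). Height ratios took the highest summit of each condition at regions with peaks in both. Heights and folds of a list at a region are those of its highest overlapping peak, of any width. An H2A.Z value therefore need not belong to the wide H2A.Z peak of the rule. Regions and classes were chosen with earlier results of these data known, so nothing here is independent evidence. The named regions are the 6 highest by FLAG and by H2A.Z q, the 3 widest, the 3 best by rank over all 10 lists, and the 3 strongest lacking overexpression FLAG, overexpression H2A.Z or any mark. Bands came from circlize 0.4.16 in R 4.3.3, and the rest was computed in Python 3.11.15 with scipy 1.17.1, pandas 2.3.3, numpy 2.4.6 and matplotlib 3.10.9. Alternatives were a width of 1000 bp, a q of 0.05, an overlap of 50% of the FLAG peak, and leaving out regions on input peaks or of high local H2A.Z background.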

Additional observations from a re-analysis of the deposited data

How the results depend on the processing

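All 14 results were recomputed under 5 alternatives. Leaving out the 4 regions on input peaks left 5890 regions and moved no value beyond its interval. Leaving out regions with a local H2A.Z background of 2 or more left 4759, and moved overexpression H2A.Z alone, to 72.9%. A minimum width of 1000 bp left 925 regions. Shares became 95.03% for control H2A.Zac, 55.8% for control H3K4me1, 95.03% for overexpression FLAG, 91.8% for overexpression H2A.Z, 87.9% for overexpression H2A.Zac and 69.7% for overexpression H3K4me1, with height ratios of 0.629 for H2A.Zac and 0.776 for H3K27ac. A q of 0.05 or less in every list left 3517 regions. Control shares became 88.1% for H2A.Zac, 41.5% for H3K27ac and 13.22% for H3K4me1. Overexpression shares became 65.8% for FLAG, 63.6% for H2A.Z, 75.4% for H2A.Zac, 37.0% for H3K27ac and 42.4% for H3K4me1. Height ratios became 0.908 for H2A.Z and 1.07 for H3K4me1, and FLAG turned from 0.969 to 1.04. An overlap of at least 50% of the FLAG peak with a single wide H2A.Z peak left 3898 regions. Here a list also counted as present only where its peaks covered at least 50% of the FLAG peak. The shares below therefore use a stricter definition of presence than the main ones. Control shares became 79.3% for H2A.Zac, 40.8% for H3K27ac and 10.98% for H3K4me1. Overexpression shares became 63.0% for FLAG, 60.6% for H2A.Z, 67.6% for H2A.Zac, 37.8% for H3K27ac and 21.4% for H3K4me1. Height ratios became 0.905 for H2A.Z and 1.20 for H3K4me1, and FLAG turned to 1.04. These 3 alternatives keep fewer regions or count fewer peaks by construction, and no other cause was tested. H2A.Zac and H3K27ac ratios stayed below 1 and H3K4me1 above 1 under all 5. The direction of the FLAG ratio is not settled by these data. FLAG depth limits these values, with a median of 9 reads at a control summit. None of the 12 groups has a replicate. No paired analysis was possible because each group has 1 library, whose replicate number only names it.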
